A study of Mus musculus with 20 samples.

Results

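The Th1 cytokine axis of the mouse ileal mucosa was measured with 11 real-time PCR assays for 7 genes, out of 648 assays for 584 genes on an inflammation panel. The members were all assays on the panel for Il12a, Il12b, Ifng, Cxcl9, Cxcl10, Cxcl11 and Cxcr3, chosen by gene name, and assays of the same gene were kept apart. Total RNA was profiled in 20 samples, 5 in each of 4 groups. CEC samples came from mice given dinitrobenzene sulfonic acid (DNBS), a hapten used to induce colitis, into the rectum and CEC by mouth; the labels do not expand CEC. Nissle samples came from mice given intrarectal DNBS and oral Nissle. DNBS samples had intrarectal DNBS and oral phosphate-buffered saline (PBS), and healthy samples had PBS by both routes. Strain, age, doses and times are not given in the sources used here. The series text speaks of RNA pooled in equal amounts from each mouse, so a sample may not be 1 mouse, and p-values measure only how these samples spread, which may be a technical spread.

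Interleukin 12 is a dimer of the p35 chain, encoded by Il12a, and the p40 chain, encoded by Il12b, and is released mainly by macrophages and dendritic cells. It drives T and natural killer cells to make interferon gamma, encoded by Ifng. Interferon gamma induces the chemokines Cxcl9, Cxcl10 and Cxcl11, which recruit further T cells through their shared receptor, Cxcr3. In the gut this axis is known from intracellular infection and from Th1-type colitis.

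Each value is a cycle threshold (Ct), the PCR cycle at which the fluorescence passed a set level, and 40 stands for an assay that did not amplify. The relative level used here is the sample's mean Ct over the 452 assays measured in every sample minus the assay's own Ct. This reads as log2 on the assumption, not measured here, of a doubling of product per cycle, and levels can be set against each other within an assay and not between assays. That mean Ct was 22.4 to 24.0 cycles, and 537 to 592 assays had their own Ct in each sample. Levels are listed by sample number: CEC 1, 3, 5, 7 and 8, Nissle 1 to 5, DNBS 1 to 5, and healthy 1b, 3, 4, 5 and 6. Markers of intestinal epithelium, 4 assays, averaged 7.87 to 8.44 above the sample mean in the CEC and 6.75 to 8.23 in the Nissle samples. They averaged 6.59 to 7.80 in the DNBS and 6.93 to 8.14 in the healthy samples. CEC and DNBS samples did not overlap on this scale. They did overlap once the shifts between parts of the table, described below, were removed (7.62 to 8.30 in CEC, 6.24 to 8.03 in DNBS).

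Features of the table touch these values. For Nissle 3, 4 and 5, 1 label names the healthy controls while their titles, descriptions and treatments name Nissle; they were kept as Nissle. In 172 of 12960 cells, 8 of them among the 220 member cells, the deposited value equals the mean of the other 4 samples of its group; such cells were treated as missing, and they are CEC 7 in 4 member assays, DNBS 3 in both Il12a assays, and Nissle 5 and healthy 4 in 1 Il12a assay each. The table also falls into 12 runs of 54 consecutive rows, called table sections here, within which a sample's Ct values shift together. The spread of a sample's 12 shifts was 0.40 to 3.23 cycles, widest in healthy 5, at 3.23, DNBS 5, at 2.57, and DNBS 1, at 1.92. Members lie in 6 of these sections, so each result was also computed with every section centred in every sample, a choice made after the data were seen.

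**Figure D1:**
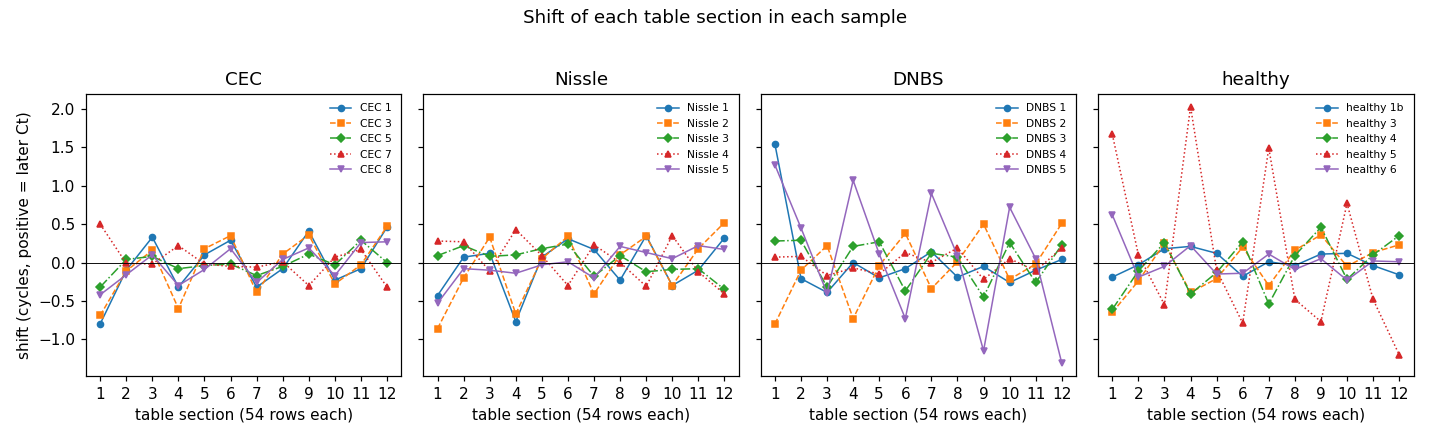
Shift of each of the 12 table sections, in cycles relative to the sample's mean, in the CEC, Nissle, DNBS and healthy samples, with 1 line per sample; above 0 is a later Ct. Healthy 5 stood at 1.67 in section 1 (Il12b, Cxcl11), at 1.49 in section 7 (Ifng) and at -1.20 in section 12 (Il12a, Cxcl9), and DNBS 5 at 1.27, 0.90 and -1.31 in the same sections.

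No member assay differed between any groups at an adjusted p of 0.05 by limma, with all 11 tested in 7 comparisons. The count was 0 of 11 in CEC against healthy samples, where 0.00% of the 569 tested assays were called. It was 0 of 11 in Nissle against healthy samples (0.176% of all assays), in DNBS against healthy samples (0.176%), and in the 3 DNBS-treated groups against healthy samples (0.176%). It was 0 of 11 in CEC against DNBS (0.00%), Nissle against DNBS (0.00%) and CEC against Nissle (0.00%). At an unadjusted p under 0.05, Cxcl9 was the 1 member in CEC against healthy samples (3.51% of all assays), in CEC against DNBS (10.4%) and in CEC against Nissle (1.58%), and Cxcl11 was the 1 member in Nissle against healthy samples (8.26%). There were 0 in DNBS against healthy samples (14.1%), in Nissle against DNBS (4.57%) and in the DNBS-treated groups against healthy samples (11.2%). The CEC, Nissle and DNBS comparisons with healthy samples share the same 5 healthy samples.

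The members lay on both sides of 0 in each comparison. The log2 difference was above 0 in 5 of 11 member assays in CEC against healthy samples (46.6% of all assays), with a median of -0.27 over members and -0.05 over all assays. It was above 0 in 7 of 11 in Nissle against healthy samples (46.4%), with medians of 0.31 and -0.05, and in 7 of 11 in DNBS against healthy samples (46.9%), with medians of 0.24 and -0.04. Against the DNBS samples, 6 of 11 were above 0 in CEC (48.3%; medians 0.11 and -0.03) and 9 of 11 in Nissle (46.2%; medians 0.43 and -0.05). In CEC against Nissle 3 of 11 were above 0 (57.5%; medians -0.38 and 0.05). No member had groups that did not overlap in any pair, a pattern found in 0.879% of assays in CEC against healthy, 2.28% in Nissle against healthy, 4.57% in DNBS against healthy, 2.46% in CEC against DNBS, 0.703% in Nissle against DNBS and 0.351% in CEC against Nissle.

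With the table sections centred, again 0 of 11 members passed the adjusted threshold in each comparison. Of all assays 0.176% passed in CEC, in Nissle, in DNBS and in the DNBS-treated groups, each against healthy samples, and 0.00% in the other comparisons. At an unadjusted p under 0.05 there was 1 member in CEC against DNBS, Cxcl9 (7.38% of all assays), and there were 2 in CEC against Nissle, Cxcl9 and Cxcl10 (3.51%). There were 0 in CEC against healthy (4.04%), in Nissle against healthy (10.5%), in DNBS against healthy (19.9%), in Nissle against DNBS (4.04%) and in the DNBS-treated groups against healthy samples (17.0%). The centred difference was above 0 in 4 of 11 members in CEC against healthy (47.1% of all assays), 8 in Nissle against healthy (45.0%), 8 in DNBS against healthy (48.9%), 4 in CEC against DNBS (49.0%), 8 in Nissle against DNBS (47.5%) and 2 in CEC against Nissle (58.2%). Non-overlapping groups were found in 0 members, against 0.527% of assays in CEC against healthy, 3.69% in Nissle against healthy, 7.91% in DNBS against healthy, 0.351% in CEC against DNBS, 0.527% in Nissle against DNBS and 0.176% in CEC against Nissle.

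**Figure D2:**
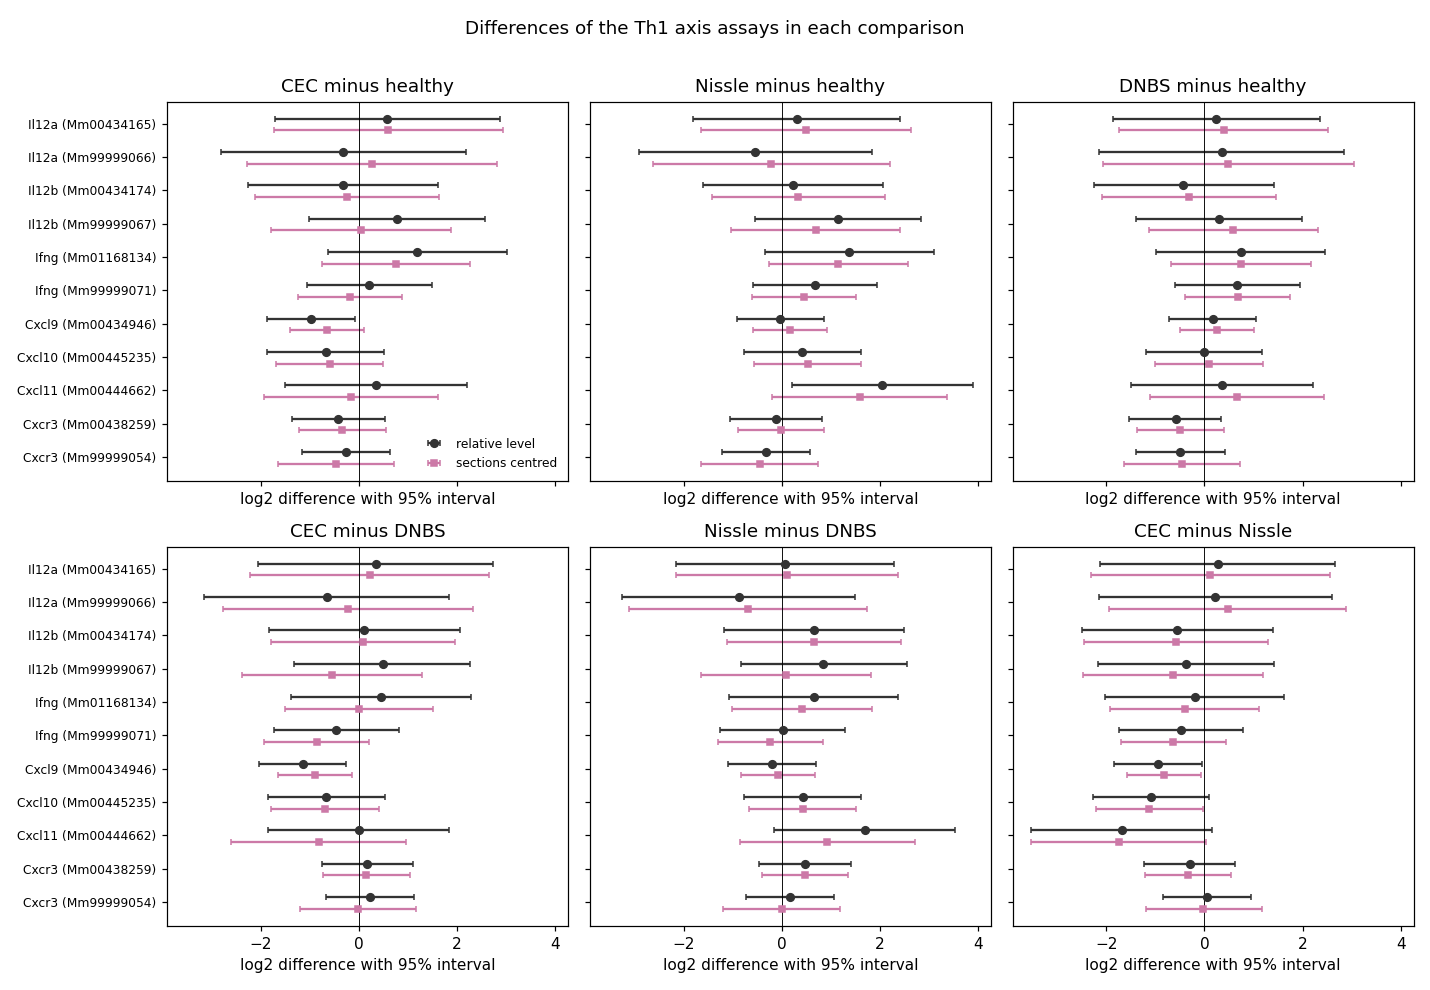
Log2 difference of each member assay in the group comparisons with its 95% interval by limma, as measured and with the table sections centred. As measured, intervals that leave out 0 belong to Cxcl9 in the CEC comparisons and Cxcl11 in Nissle against healthy samples, and with the sections centred to Cxcl9 in CEC against DNBS and to Cxcl9 and Cxcl10 in CEC against Nissle; none passed the adjusted threshold.

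No difference in detection passed its test. Of the 220 member cells, 2 were undetermined, those of the Il12a assay Il12a_Mm00434165_m1 in CEC 5 and CEC 8, so that assay had its own Ct in 3 of 5 CEC, 4 of 5 Nissle, 4 of 5 DNBS and 5 of 5 healthy samples. In Fisher's exact test of detection, two-sided and adjusted over 648 assays, 0 members passed in each of the 6 pairs of groups (0.00% of all assays in each). At an unadjusted p under 0.05 there were 0 members as well, against 0.154% of assays in CEC against healthy, 0.309% in Nissle against healthy, 0.309% in DNBS against healthy and 0.00% in the other pairs. The widest member contrast was 3 of 5 CEC against 5 of 5 healthy samples in that Il12a assay (unadjusted p = 0.444 by Fisher's exact test). With 5 samples per group the test cannot tell such a contrast from none, so no conclusion on detection follows from it.

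The interleukin 12 subunits amplified late. Mean Ct was 28.3 and 29.0 for the Il12a assays and 28.3 and 28.5 for the Il12b assays, placing them at ranks 549, 571, 547 and 554 from the earliest of 622 assays. For the p35 gene, Il12a_Mm00434165_m1 stood at -3.96, -5.43 and -5.32 in CEC 1, 3 and 7, at -2.31, -7.74, -5.32 and -5.34 in Nissle 1 to 4, at -6.48, -3.25, -4.70 and -6.55 in DNBS 1, 2, 4 and 5, and at -4.82, -5.84, -7.59, -5.02 and -4.16 in the healthy samples. All groups overlapped, and the Nissle samples alone spanned nearly the whole range, with Nissle 1 highest and Nissle 2 lowest. Over the samples with their own Ct, means were -4.91 ± 0.82 in CEC (SD, n = 3), -5.18 ± 2.22 in Nissle (n = 4), -5.25 ± 1.58 in DNBS (n = 4) and -5.48 ± 1.32 in healthy samples (n = 5), in that order, with each step under the SD of its groups. Differences from healthy samples were 0.58 (SE 1.08) in CEC, 0.31 (SE 1.0) in Nissle and 0.24 (SE 1.0) in DNBS. The place of CEC rests on leaving out its undetermined samples. With these set to 40 cycles, CEC differed from healthy samples by -4.31 and from DNBS by -4.55, against 0.58 and 0.34. Neither difference passed the test. In that setting the cells of Nissle 5 and DNBS 3 that equal the mean of their group's other samples stayed missing. The groups were therefore not treated alike in it.

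The other p35 assay, Il12a_Mm99999066_m1, stood at -7.10, -6.03, -5.86 and -5.75 in CEC 1, 3, 5 and 8, at -2.49, -6.81, -7.38, -4.75 and -10.60 in the Nissle samples, at -6.24, -4.63, -5.89 and -5.33 in DNBS 1, 2, 4 and 5, and at -5.93, -7.19, -5.15 and -5.19 in healthy 1b, 3, 5 and 6. Nissle samples were again both the highest and the lowest. Means ran from DNBS, at -5.52 ± 0.70 (SD, n = 4), through healthy samples, at -5.87 ± 0.95 (n = 4), and CEC, at -6.19 ± 0.62 (n = 4), to Nissle, at -6.40 ± 3.03 (n = 5), and no step exceeded the SDs. The differences from healthy samples were -0.32 (SE 1.19) in CEC, -0.54 (SE 1.13) in Nissle and 0.35 (SE 1.19) in DNBS, so the Il12a assays differ in sign for CEC and for Nissle as measured. With the sections centred the differences in CEC, Nissle and DNBS were 0.26, -0.21 and 0.48 in this assay and 0.60, 0.49 and 0.39 in Il12a_Mm00434165_m1, where the signs differ for Nissle only.

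The p40 chain, shared with interleukin 23, was read by assays in different table sections. Il12b_Mm00434174_m1 stood at -7.59, -4.48, -5.09 and -4.62 in CEC 1, 3, 5 and 8, at -3.11, -4.83, -4.43, -4.09 and -7.99 in the Nissle samples, at -4.82, -5.18, -5.90, -7.23 and -4.62 in the DNBS samples, and at -7.53, -4.51, -4.74, -4.35 and -4.49 in the healthy samples. Every group held 1 sample at -7.23 or below, CEC 1, Nissle 5, DNBS 4 and healthy 1b, and the groups overlapped throughout. The means were -5.44 ± 1.45 in CEC (SD, n = 4), -4.89 ± 1.85 in Nissle, -5.55 ± 1.06 in DNBS and -5.12 ± 1.35 in healthy samples (n = 5 each), within a single SD of each other. Il12b_Mm99999067_m1 stood at -6.75, -5.52, -3.76 and -4.76 in CEC 1, 3, 5 and 8, at -3.02, -4.29, -6.00, -4.91 and -5.89 in the Nissle samples, at -5.71, -4.20, -5.64, -7.45 and -5.36 in the DNBS samples, and at -7.33, -4.73, -4.18, -5.83 and -7.75 in the healthy samples. Its mean was -5.20 ± 1.26 in CEC, -4.82 ± 1.23 in Nissle, -5.67 ± 1.17 in DNBS and -5.96 ± 1.56 in healthy samples, an order whose steps are all below the SDs. The differences from healthy samples were 0.77 (SE 0.86) in CEC, 1.14 (SE 0.81) in Nissle and 0.29 (SE 0.81) in DNBS, and with the sections centred 0.04, 0.69 and 0.59. With the replicate number as a block all these differences turned negative, at -0.62 in CEC, -0.26 in Nissle and -1.11 in DNBS. In that fit a sample whose number no other group has carries no weight in the differences. Such samples were healthy 1b and 6 and CEC 7 and 8. Healthy 1b and 6 held the lowest healthy levels of this assay, at -7.33 and -7.75. In Il12b_Mm00434174_m1 the differences from healthy samples were -0.32, 0.23 and -0.43 without the block and -1.40, -0.51 and -1.17 with it. None of these differences passed.

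**Figure D3:**
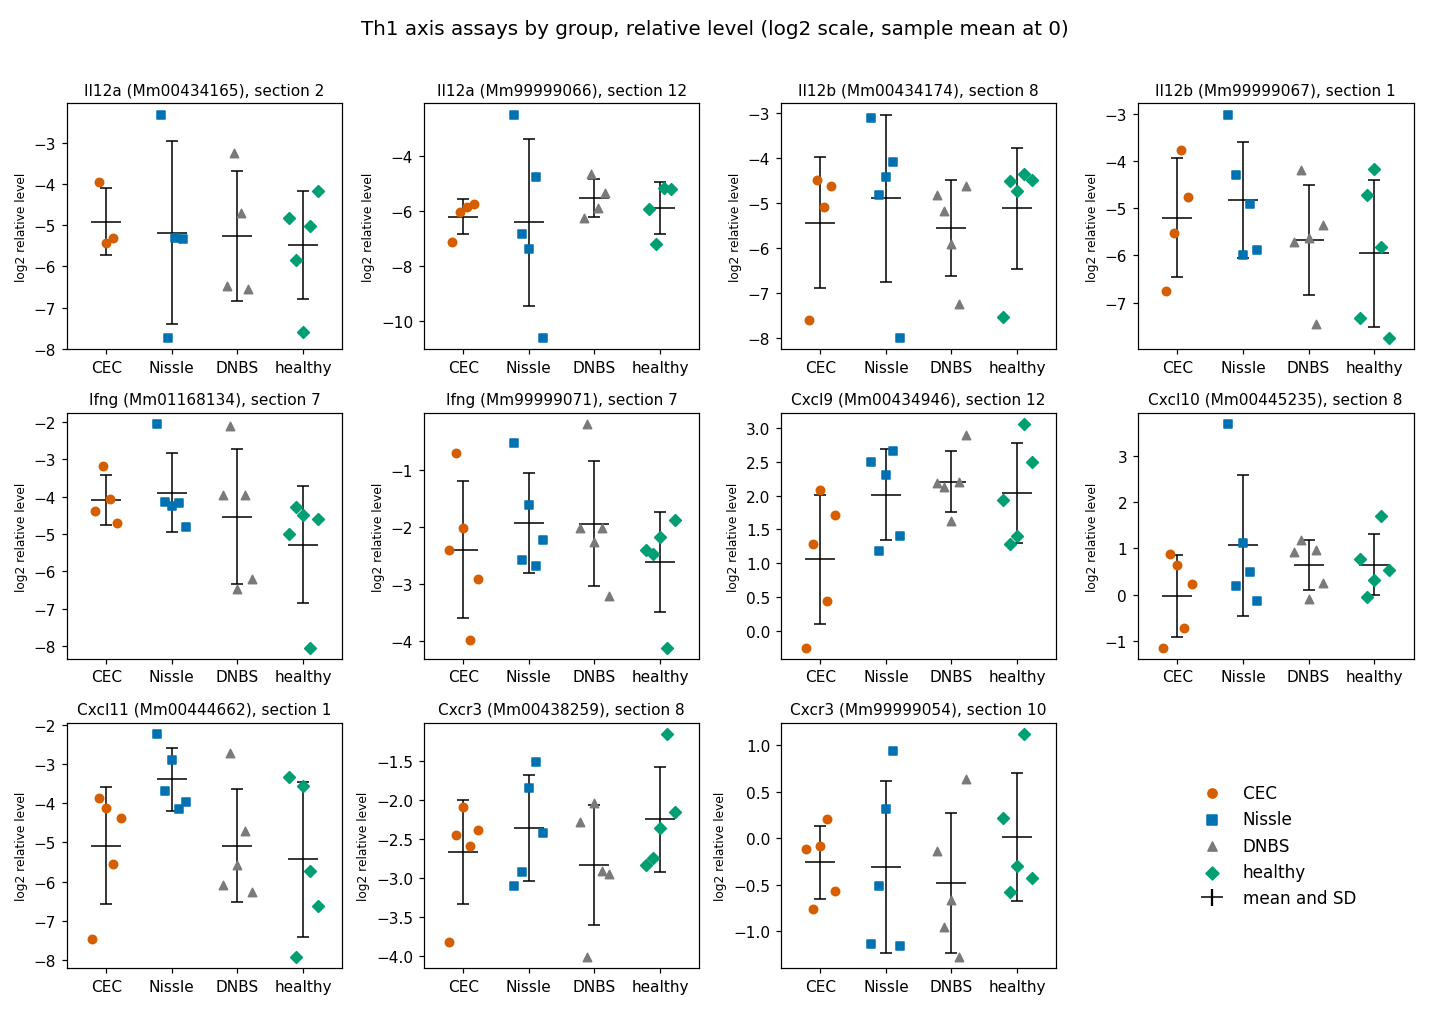
Relative level of the 11 member assays in each CEC, Nissle, DNBS and healthy sample, with group means and SDs, in log2 units. Groups overlap in every panel, and Nissle 1 is the highest of all samples in 7 of the 11.

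Ifng, the interferon gamma gene, lay in a single table section with both of its assays, at a mean Ct of 27.5 and 25.3. The later assay, Ifng_Mm01168134_m1, stood at -4.39, -3.19, -4.07 and -4.71 in CEC 1, 3, 5 and 8, at -2.06, -4.15, -4.25, -4.18 and -4.81 in the Nissle samples, at -3.95, -2.11, -6.48, -3.96 and -6.19 in the DNBS samples, and at -4.99, -4.27, -4.48, -8.04 and -4.59 in the healthy samples. Nissle 1 and DNBS 2 were highest, healthy 5 was lowest, and the other healthy samples lay among the treated ones. The mean was -4.09 ± 0.66 in CEC (SD, n = 4), -3.89 ± 1.06 in Nissle, -4.54 ± 1.81 in DNBS and -5.28 ± 1.57 in healthy samples (n = 5 each). All differences from healthy samples were positive and none passed: 1.19 in CEC (SE 0.87, adjusted p = 0.806 by limma), 1.38 in Nissle (SE 0.82, adjusted p = 0.555), 0.74 in DNBS (SE 0.82, adjusted p = 0.755) and 1.10 over the DNBS-treated groups (SE 0.68, adjusted p = 0.496). Without healthy 5 they were 0.50, 0.69, 0.05 and 0.41, and without DNBS 2 the DNBS difference was 0.13. Healthy 5 has a shift of 1.49 cycles in this section, and with sections centred the differences in CEC, Nissle and DNBS were 0.75, 1.15 and 0.75.

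The earlier Ifng assay, Ifng_Mm99999071_m1, had its own Ct in all 20 samples. It stood at -2.41, -0.71, -2.01, -3.97 and -2.91 in the CEC samples, at -0.53, -2.58, -1.62, -2.68 and -2.22 in the Nissle samples, at -2.02, -0.20, -2.27, -2.01 and -3.20 in the DNBS samples, and at -2.40, -2.48, -2.17, -4.11 and -1.88 in the healthy samples. The highest sample of each DNBS-treated group, CEC 3, Nissle 1 and DNBS 2, lay above every healthy sample. From the highest mean the order was Nissle, at -1.93 ± 0.88, DNBS, at -1.94 ± 1.09, CEC, at -2.40 ± 1.20, and healthy, at -2.61 ± 0.87 (SD, n = 5 each), with steps below the SDs. The differences from healthy samples were 0.21 in CEC, 0.68 in Nissle and 0.67 in DNBS (SE 0.61 each, adjusted p = 0.942, 0.669 and 0.686 by limma). With the sections centred they were -0.18, 0.45 and 0.68. In CEC against DNBS the difference was -0.46, and -0.86 with the sections centred (unadjusted p = 0.107 by limma).

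The Ifng promoter is shown for a match to the gamma-activated sequence, an element known from interferon gamma-responsive genes. It is the 250 bases before the RefSeq start site at chr10:118440796-118441045 of GRCm38.p6, plus strand, 5′ to 3′, and the capitals mark TTCNNNGAA, searched on both strands and found here 249 to 241 bases before the start.
Ifng: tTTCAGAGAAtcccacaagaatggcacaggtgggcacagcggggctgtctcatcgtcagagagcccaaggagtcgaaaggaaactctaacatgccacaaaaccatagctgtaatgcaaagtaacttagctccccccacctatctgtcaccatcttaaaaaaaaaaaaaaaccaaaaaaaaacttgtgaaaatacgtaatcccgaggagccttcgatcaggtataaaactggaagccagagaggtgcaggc
The same letters occur in 7.0% of 32851 mouse promoter windows of 250 bases, so the match is a description of this window only.

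The interferon-induced chemokines held the member differences with the smallest p-values. Cxcl9 and Cxcl10 lie on chromosome 5 with Art3 between them and Cxcl11 next to Cxcl10. RefSeq annotates Cxcl11 as a transcribed pseudogene in GRCm38.p6, the genome of the C57BL/6J strain. Cxcl9 was the earliest member, with a mean Ct of 21.3 that was earlier than in 79.1% of assays, against 22.5 for Cxcl10 and 27.8 for Cxcl11. The promoters of Cxcl9 and Cxcl10 are shown because these neighbouring genes moved together across samples on both scales described here. Each is the 250 bases before the RefSeq start site in GRCm38.p6 on the minus strand, printed 5′ to 3′, at chr5:92328080-92328329 for Cxcl9 and chr5:92348890-92349139 for Cxcl10. The capitals mark matches, on either strand, to GAAANNGAAA, the interferon-stimulated response element, and to GGGNNNTTCC or GGGNNTTCC, letters of the NF-kB element.
Cxcl9: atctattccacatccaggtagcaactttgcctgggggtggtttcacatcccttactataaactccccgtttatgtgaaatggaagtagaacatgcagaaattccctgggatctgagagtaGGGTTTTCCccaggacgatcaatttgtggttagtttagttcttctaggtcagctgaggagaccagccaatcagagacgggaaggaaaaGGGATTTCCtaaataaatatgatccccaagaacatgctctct
Cxcl10: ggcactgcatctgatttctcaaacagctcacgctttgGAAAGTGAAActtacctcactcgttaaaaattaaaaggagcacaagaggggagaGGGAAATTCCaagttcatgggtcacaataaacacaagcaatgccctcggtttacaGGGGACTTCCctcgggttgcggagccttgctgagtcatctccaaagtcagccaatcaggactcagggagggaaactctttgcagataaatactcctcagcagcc
Cxcl10 holds GAAAGTGAAA 213 to 204 bases before the start, GGGAAATTCC 159 to 150 bases before and GGGGACTTCC 104 to 95 bases before, the last overlapping a match to the shorter form. Cxcl9 holds GGGTTTTCC 130 to 122 and GGGATTTCC 42 to 34 bases before its start, with no match to GAAANNGAAA or TTCNNNGAA in this window. Of all mouse promoter windows of this length, 3.0% hold GAAANNGAAA, 4.6% GGGNNNTTCC and 5.0% GGGNNTTCC. The windows of Il12a, Il12b and Cxcr3 hold none of the 4 sets of letters.

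Cxcl9, a T-cell attractant made in response to interferon gamma, had its lowest mean in CEC samples. It stood at -0.24, 1.28, 2.08, 0.45 and 1.71 in the CEC samples, at 2.49, 1.19, 2.30, 2.65 and 1.40 in the Nissle samples, at 2.19, 2.12, 1.62, 2.20 and 2.89 in the DNBS samples, and at 1.94, 1.29, 1.40, 3.05 and 2.50 in the healthy samples. CEC 1 and CEC 7 lay below every sample of the other groups, while CEC 3, 5 and 8 lay among them. The means were 1.06 ± 0.95 in CEC, 2.01 ± 0.67 in Nissle, 2.20 ± 0.45 in DNBS and 2.04 ± 0.74 in healthy samples (SD, n = 5 each), so that Nissle, DNBS and healthy samples lay within a spread of each other. In CEC against DNBS the log2 difference was -1.15 (SE 0.43, 95% interval -2.04 to -0.26), a level 2.22-fold lower in CEC, with an unadjusted p of 0.0141 and an adjusted p of 0.390 by limma. The difference was -0.98 against healthy samples (SE 0.43, unadjusted p = 0.0327, adjusted p = 0.806 by limma) and -0.95 against Nissle (SE 0.43, unadjusted p = 0.0376, adjusted p = 1.0 by limma). These 3 differences share the same 5 CEC samples.

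The lower Cxcl9 of CEC samples kept its sign in each of the 40 alternative settings and passed the adjusted threshold in none. With the sections centred, Cxcl9 stood at 0.22, 1.75, 2.08, 0.13 and 1.98 in the CEC samples, at 2.82, 1.70, 1.95, 2.24 and 1.57 in the Nissle samples, at 2.22, 2.63, 1.85, 2.39 and 1.58 in the DNBS samples, and at 1.78, 1.52, 1.75, 1.85 and 2.50 in the healthy samples. CEC 1 and CEC 7 were again below every sample of the other groups, and the difference from DNBS was -0.90 (SE 0.36, unadjusted p = 0.0214, adjusted p = 0.628 by limma). It was -0.65 from healthy samples (unadjusted p = 0.0877) and -0.82 from Nissle (unadjusted p = 0.0341). Without CEC 1, on the uncentred scale, the difference was -0.82 from DNBS, -0.66 from healthy samples and -0.63 from Nissle. No other single sample left out brought these differences as near to 0 as CEC 1 did. CEC 7 had the latest mean Ct of all samples, at 24.0, and 17 cells that equal the mean of the other CEC samples. In these bulk samples fewer cells that make a transcript and less of it per cell cannot be told apart. Markers of other cell types also differed between CEC and DNBS samples, with none past the adjusted threshold. The mean over the 4 epithelial assays, for 3 genes, ran from 7.87 to 8.44 in CEC and from 6.59 to 7.80 in DNBS samples. The median difference was 1.13, with 3 assays higher in CEC and 1 lower. At an unadjusted p under 0.05 by limma there were 3 of 4 assays (10.4% of all assays). With the sections centred the ranges overlapped, at 7.62 to 8.30 in CEC and 6.24 to 8.03 in DNBS samples. The median difference was then 0.75, again with 3 assays higher and 1 lower, and 0 of 4 had an unadjusted p under 0.05 (7.38% of all assays). The 8 neutrophil assays had a median difference of -1.14, the 8 macrophage and dendritic cell assays 0.08 and the 6 T and natural killer cell assays 0.20. Of the samples low in Cxcl9, CEC 1 had the highest macrophage and dendritic cell mean of its group, -0.46, and CEC 7 had -1.19. Their T and natural killer cell means lay at opposite ends of the CEC samples as measured. That of CEC 1 was the highest, at -2.09, and that of CEC 7 the lowest, at -3.00. The part of these cell types in the Cxcl9 difference was not tested.

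**Figure D4:**
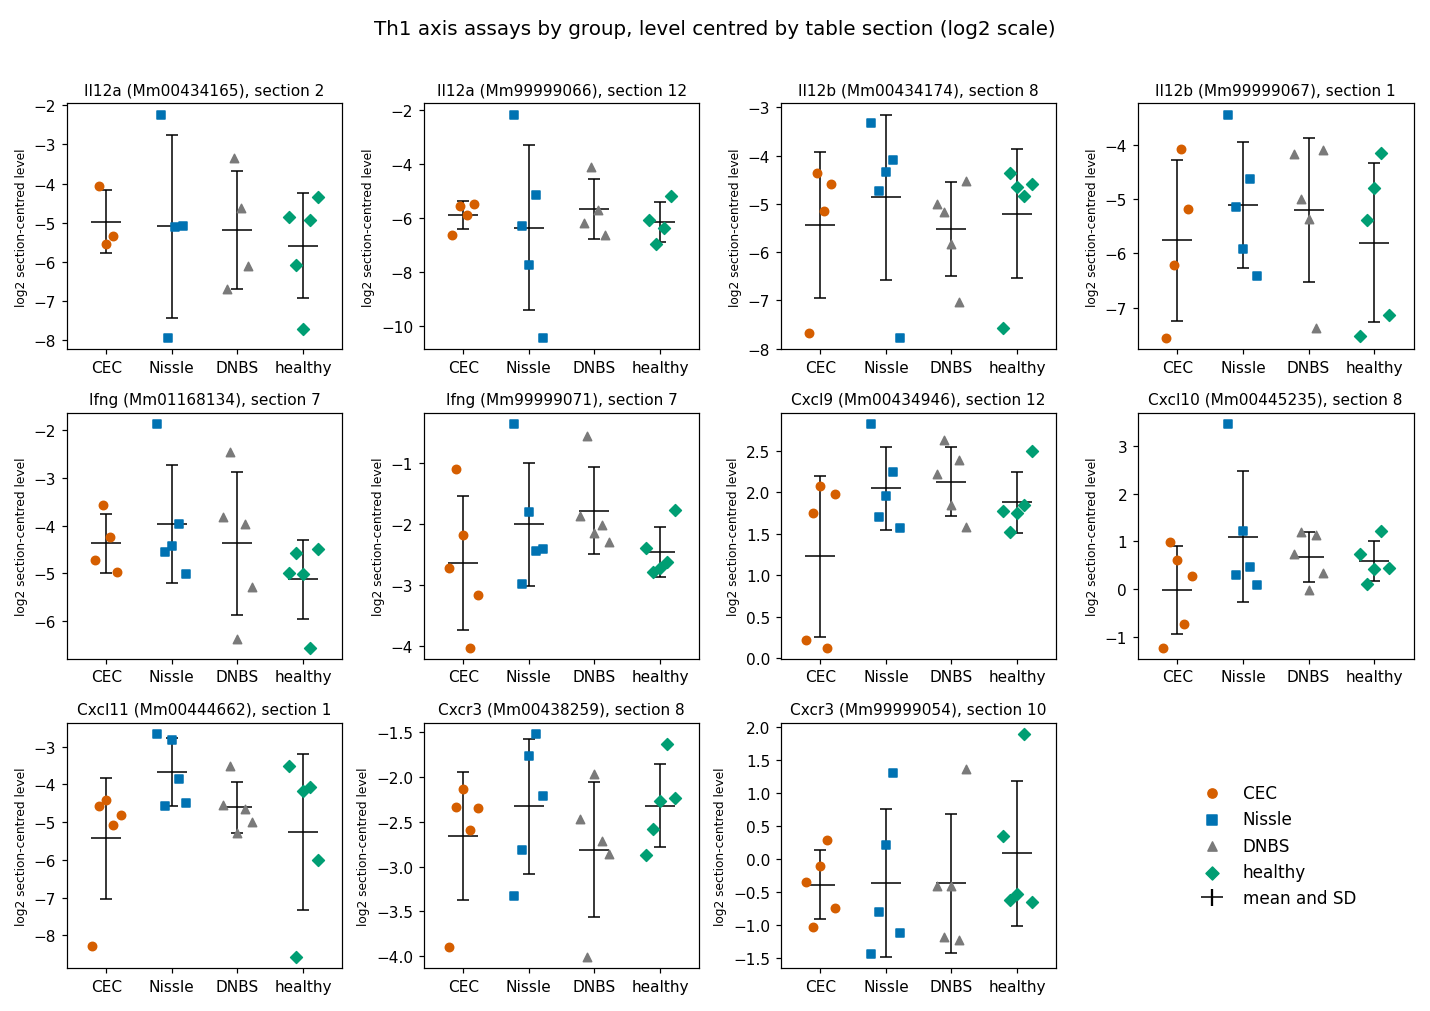
Relative level of the 11 member assays in each CEC, Nissle, DNBS and healthy sample with every table section centred in every sample, with group means and SDs, in log2 units. For Cxcl9, CEC 1 and CEC 7 lie below all samples of the other groups, and Nissle 1 is the highest of all samples in 9 of the 11 panels.

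Cxcl10, induced by both interferon types, stood at -1.15, 0.87, 0.65, -0.73 and 0.23 in the CEC samples, at 3.69, 0.19, 1.12, 0.48 and -0.13 in the Nissle samples, at 0.92, 1.18, -0.10, 0.96 and 0.24 in the DNBS samples, and at 0.77, -0.05, 0.32, 1.70 and 0.53 in the healthy samples. As for Cxcl9, CEC 1 and CEC 7 were the lowest of all samples. Nissle 1 stood far above the next sample, healthy 5. The means were -0.03 ± 0.88 in CEC, 1.07 ± 1.53 in Nissle, 0.64 ± 0.54 in DNBS and 0.65 ± 0.66 in healthy samples (SD, n = 5 each). In CEC against Nissle the log2 difference was -1.10 (SE 0.57, unadjusted p = 0.0683, adjusted p = 1.0 by limma). It was -0.44 without Nissle 1 and -1.97 without the Nissle samples of contradictory label, which leaves Nissle 1 and 2. The differences of CEC from DNBS, at -0.67, and from healthy samples, at -0.68, were within the error (unadjusted p = 0.255 and 0.247 by limma) and were -0.39 and -0.40 without CEC 1. DNBS differed from healthy samples by -0.01.

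Cxcl11, a ligand of the same receptor, stood at -7.47, -3.88, -4.11, -5.56 and -4.38 in the CEC samples, at -2.23, -3.70, -2.91, -4.14 and -3.96 in the Nissle samples, at -6.08, -2.72, -5.58, -4.72 and -6.27 in the DNBS samples, and at -3.32, -7.93, -3.57, -5.73 and -6.62 in the healthy samples. On this scale the Nissle samples formed the tightest group and lay in the upper part of the range, while the healthy samples spread over most of it. With the sections centred the DNBS samples were the tightest (SD 0.68, against 0.90 in Nissle). Nissle 2 and 5, at -4.56 and -4.49, then lay below healthy 1b, 4 and 5, and the Nissle mean was still the highest, at -3.68. As measured, the means were -5.08 ± 1.49 in CEC, -3.39 ± 0.80 in Nissle, -5.08 ± 1.45 in DNBS and -5.43 ± 1.98 in healthy samples (SD, n = 5 each). In Nissle against healthy samples the log2 difference was 2.04 (SE 0.89, 95% interval 0.20 to 3.89), 4.12-fold, with an unadjusted p of 0.0319 and an adjusted p of 0.555 by limma. It was 1.59 with the sections centred (unadjusted p = 0.0778), 1.42 without healthy 3 and 1.75 without Nissle 1, and it stayed positive in each of the 40 alternative settings. Nissle differed from DNBS by 1.69 (unadjusted p = 0.0714 by limma), and by 0.93 with the sections centred and 0.95 without healthy 5, DNBS 5 and DNBS 1, whose sections shifted most. CEC differed from Nissle by -1.69 (unadjusted p = 0.0708) and by -1.09 without CEC 1.

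Cxcr3, the receptor for these chemokines on activated T cells, was read at a mean Ct of 25.6 and 23.3. Cxcr3_Mm00438259_m1 stood at -3.82, -2.45, -2.09, -2.59 and -2.39 in the CEC samples, at -3.11, -2.93, -1.85, -1.51 and -2.42 in the Nissle samples, at -2.28, -4.02, -2.04, -2.91 and -2.95 in the DNBS samples, and at -2.83, -2.74, -2.36, -1.15 and -2.15 in the healthy samples. Its lowest samples were DNBS 2 and CEC 1, and its highest was healthy 5. The order of means was healthy, at -2.25 ± 0.67, Nissle, at -2.36 ± 0.68, CEC, at -2.67 ± 0.67, and DNBS, at -2.84 ± 0.77 (SD, n = 5 each), with no step above the SDs. The differences from healthy samples were -0.42 in CEC, -0.12 in Nissle and -0.59 in DNBS (SE 0.45 each, adjusted p = 0.860, 0.925 and 0.600 by limma).

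The single-exon assay Cxcr3_Mm99999054_s1, of a kind that may read genomic DNA too, stood at -0.12, -0.76, -0.08, 0.21 and -0.57 in the CEC samples, at -1.14, -0.51, 0.31, 0.94 and -1.16 in the Nissle samples, at -0.14, -0.96, -0.67, -1.28 and 0.64 in the DNBS samples, and at 0.22, -0.58, -0.30, 1.12 and -0.43 in the healthy samples. The means were -0.26 ± 0.39 in CEC, -0.31 ± 0.92 in Nissle, -0.48 ± 0.75 in DNBS and 0.01 ± 0.69 in healthy samples (SD, n = 5 each). All treated groups again had means below that of the healthy samples, by -0.27, -0.32 and -0.49 (SE 0.43 each), all within the error.

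Next, it was asked whether the members varied together among samples, over 12 pairs of assays fixed by name, with group means removed and two-sided permutation tests adjusted over the 12. The permutations ran over all samples and took no account of the removed means, so p-values close to the threshold may be too small. Assays of the same gene varied together as measured by Pearson's r. By Spearman's rho only the Ifng pair passed (adjusted p = 0.0006 by permutation). The adjusted p of rho was 0.0591 for Il12a, 0.21 for Il12b and 0.0667 for Cxcr3 by permutation. Pearson's r was 0.86 for Ifng (n = 19, p = 3e-05, adjusted p = 0.00036; Spearman's rho 0.83), and 0.77 without the farthest samples. It was 0.69 for Il12a (n = 14, adjusted p = 0.0187; rho 0.60), and 0.34 without Nissle 1 and Nissle 2, so the Il12a relation rests on those samples. It was 0.60 for Il12b (n = 19, adjusted p = 0.0176; rho 0.34) and 0.48 for Cxcr3 (n = 20, adjusted p = 0.0456; rho 0.47). The Cxcr3 relation did not pass with the sections centred (r = 0.44, adjusted p = 0.0662) or without the Nissle samples of contradictory label (r = 0.32, adjusted p = 0.265).

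The relation of Ifng to Cxcl9 depended on the table sections. Ifng_Mm99999071_m1 and Cxcl9 had r = 0.00 as measured (n = 20, permutation p = 0.995; rho -0.03) and r = 0.67 with the sections centred (permutation p = 0.00091, adjusted p = 0.00218; rho 0.59, adjusted p = 0.0154), and 0.61 without Nissle 1 and CEC 3. The assays lie in sections 7 and 12, whose shifts ran against each other over the 20 samples (r = -0.86, permutation p = 8e-05; rho -0.75; r = -0.58 without healthy 5 and DNBS 5). The other Ifng assay gave r = -0.16 with Cxcl9 as measured and 0.56 with the sections centred (n = 19, adjusted p = 0.0222; rho 0.62). For Ifng_Mm99999071_m1 and Cxcl10 r was 0.47 as measured (adjusted p = 0.0456 by permutation), and 0.34 without Nissle 1. The rho was 0.44 and did not pass (adjusted p = 0.0848 by permutation). With the sections centred r was 0.75 (adjusted p = 0.00078, rho 0.66), and 0.64 without Nissle 1. The other Ifng assay gave r = 0.35 with Cxcl10 as measured (n = 19, adjusted p = 0.195 by permutation) and 0.60 with the sections centred (adjusted p = 0.0129), and r = 0.38 (adjusted p = 0.16) and 0.19 with Cxcl11. For Ifng_Mm99999071_m1 and Cxcl11 r was 0.49 as measured (adjusted p = 0.0456 by permutation), and 0.30 without the farthest samples. The rho was 0.49 and did not pass (adjusted p = 0.0611 by permutation). With the sections centred r was 0.33 (permutation p = 0.156).

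**Figure D5:**
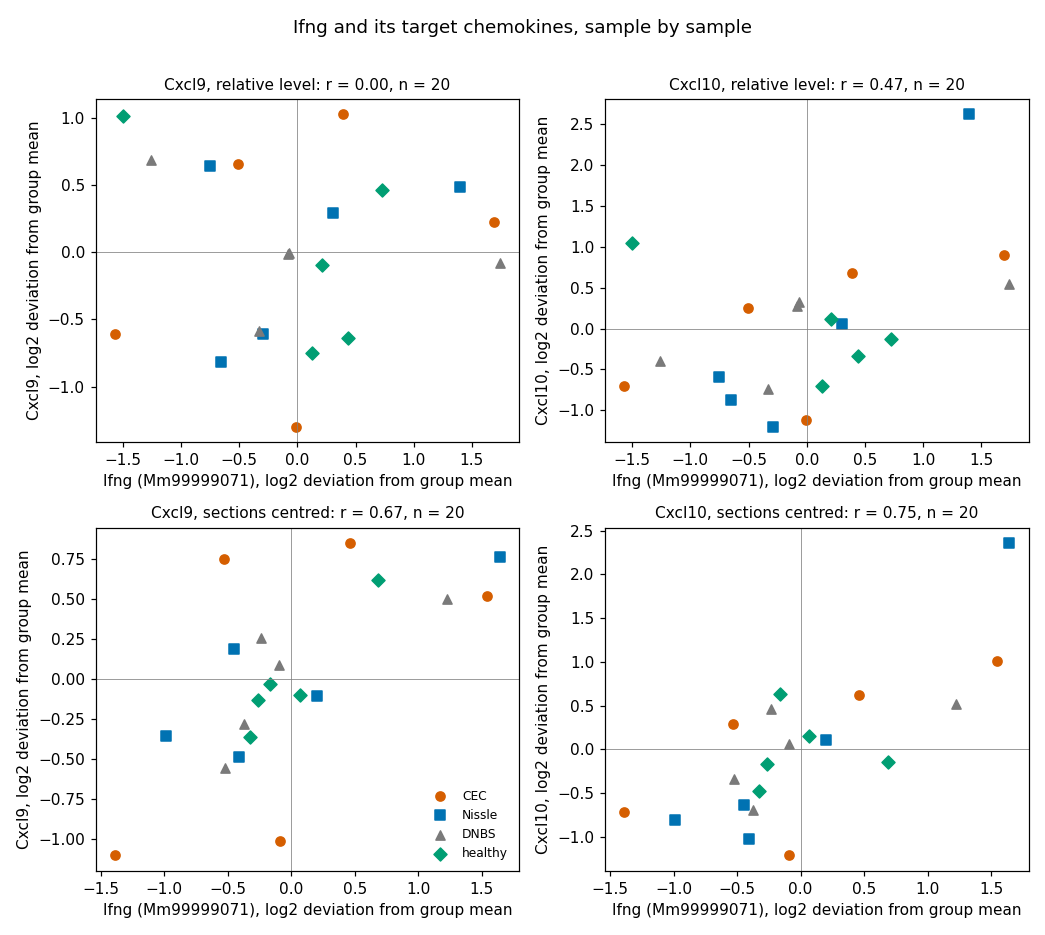
Relative level of Ifng_Mm99999071_m1 against that of Cxcl9 and of Cxcl10 per sample, in log2 units with group means removed, as measured and with the table sections centred. Pearson's r over the 20 samples is 0.00 and 0.67 for Cxcl9 and 0.47 and 0.75 for Cxcl10.

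The chemokines varied with each other. Cxcl9 and Cxcl10 had r = 0.63 as measured (n = 20, adjusted p = 0.0148 by permutation; rho 0.66) and 0.74 with the sections centred (adjusted p = 0.00078; rho 0.80), and 0.57 and 0.70 without the farthest samples. Cxcl10 and Cxcl11 had r = 0.54 (adjusted p = 0.0268; rho 0.60) and 0.62 with the sections centred (adjusted p = 0.0102; rho 0.74). For Cxcl9 and Cxcl11 r was 0.28 as measured (permutation p = 0.226) and 0.49 with the sections centred (adjusted p = 0.0363). Ifng_Mm99999071_m1 and the single-exon Cxcr3 assay ran against each other, at r = -0.62 (adjusted p = 0.0148; rho -0.55), and at -0.40 with the sections centred (adjusted p = 0.0915). Il12b_Mm00434174_m1 and Ifng had r = 0.14 (permutation p = 0.561), and 0.30 with the sections centred.

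Nissle 1 was the highest of all 20 samples in 7 of the 11 assays and in 9 with the sections centred. The Cxcr3 assays went the other way: Nissle 1 stood at -3.11 and -1.14 in them, and with the sections centred it was the lowest of all samples in Cxcr3_Mm99999054_s1, at -1.44. DNBS 2 was among the top 3 in 6 of 11 and the lowest in Cxcr3_Mm00438259_m1, at -4.02. Both had the highest mean of their group over 5 neutrophil marker assays, 3.91 in Nissle 1 and 2.34 in DNBS 2, against -2.77 to -0.92 in the healthy samples. They also had the lowest epithelial marker mean of their group, 6.75 in Nissle 1 and 6.59 in DNBS 2. CEC 1 had the highest neutrophil mean of the CEC samples, 1.62, together with the lowest Cxcl9, Cxcl10 and Cxcl11 of its group as measured. CEC 3, with a neutrophil mean of 1.51, had the highest Cxcl10 and Cxcl11 of the CEC samples, at 0.87 and -3.88. With the sections centred CEC 7 had the lowest Cxcl9 of the group, at 0.13, against 0.22 in CEC 1. The part of other cell types in the member values was not tested.

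As a description, the assays of other genes most like each member over 17 to 20 samples, by Pearson's r of the relative levels, were named. For Cxcl9 they were Tnfrsf9 (r = 0.94), Il2rg (0.84) and Tnfsf8 (0.78), all in the table section of Cxcl9. With the sections centred they were Tnfrsf9 (0.91), Tnfsf14 (0.80) and Il2rg (0.80). For Ifng_Mm99999071_m1 they were Tnfrsf4 (0.83), Ptafr (0.82) and Il1b (0.81), and with the sections centred Ltf (0.81), Tnfsf9 (0.81) and Il1b (0.80). For Cxcl10 they were Il1b (0.85), Ccl11 (0.83) and Nlrp3 (0.81), and with the sections centred Ccl4 (0.85), Il1b (0.85) and Ccl11 (0.81). Cxcl11 was nearest to Il18rap on both scales, at 0.62 and 0.78. For Il12a_Mm99999066_m1 Nlrp3 (0.78), Ncf1 (0.75) and Cebpb (0.70) came first (n = 17), and for Il12b_Mm00434174_m1 Il1rap (0.68), Il12a (0.62) and Ncf1 (0.57). The single-exon Cxcr3 assay was nearest to Tlr11 (0.81), Rplp2 (0.80) and Ifna14 (0.79), all single-exon assays too, and with the sections centred to S1pr3 (0.84), Tlr11 (0.71) and Lepr (0.70), of which only Tlr11 is. Samples are shared by all these values, and so are sections for 5 of the 21 named assays, 2 of 21 after centring.

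Genes that act before and after the members were then read from lists fixed by name, and no list member passed the adjusted threshold in any comparison on either scale by limma. Of 12 Th1 induction assays, 2 were higher and 10 lower in CEC against healthy samples, and 6 higher and 6 lower both in Nissle and in DNBS against healthy samples. The smallest p-values in DNBS against healthy samples were those of Ifnb1, the interferon beta gene, at -1.90 (SE 0.59, adjusted p = 0.172), and Il18, a cytokine that acts with interleukin 12, at 1.07 (SE 0.38, adjusted p = 0.177). The Ifnb1 assay is a single-exon one, of the kind that may read genomic DNA too. In CEC against healthy samples they were those of Il12rb2, the signalling chain of the interleukin 12 receptor, at -1.15 and Il15 at -0.65. In Nissle against healthy samples they were Ifnb1 at -1.03 and Il15 at -0.81, and in CEC against DNBS Ifnb1 at 1.34 and Il18rap at -0.82.

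Of 6 assays for the interferon gamma receptor and its signalling, 2 were higher and 4 lower in CEC, 2 and 4 in Nissle, and 1 and 5 in DNBS, each against healthy samples. Socs1, a feedback inhibitor of this pathway, differed by 0.96 in DNBS against healthy samples (adjusted p = 0.300 by limma) and by -1.14 in CEC against DNBS (adjusted p = 0.390). The Socs1 assay is a single-exon one as well. The receptor chain Ifngr2 differed by -0.61 in DNBS against healthy samples and -0.62 in Nissle against healthy samples. Ifngr1 differed by 0.89 in CEC against DNBS, where it was 0.08 with the sections centred. At an unadjusted p under 0.05 by limma there were 2 of these 6 assays in DNBS against healthy samples (14.1% of all assays). With the sections centred there were 0 (19.9%). In CEC against DNBS there was 1 as measured (10.4%) and 0 with the sections centred (7.38%). Of 13 assays for other interferon gamma-induced genes, 3 were higher and 10 lower in CEC, 5 and 8 in Nissle, and 4 and 9 in DNBS, each against healthy samples. Cd74, the invariant chain of antigen presentation, differed by -0.75 (SE 0.26, adjusted p = 0.172 by limma) and the complement gene C2 by -1.0 (SE 0.35) in DNBS against healthy samples. In CEC against DNBS, 8 of the 13 were higher and 5 lower, with B2m at 0.67 and Cd74 at 0.58, and at 0.27 and 0.34 with the sections centred.

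Cytokines that counter the Th1 response were mostly at the edge of detection. Il10 had its own Ct in 0 of 20 samples and Il5 in 1. Il4 had its own Ct in 6 samples, and the Il13 assays in 3 and 4. Il23a, the partner of p40 in interleukin 23, had its own Ct in 10 and 7 samples with its assays, and Il2 in 13 and 16. Of the 7 tested assays in the list of counter-acting genes, 2 were higher and 5 lower in CEC, 4 and 3 in Nissle, and 3 and 4 in DNBS, each against healthy samples. Of 6 T and natural killer cell assays, 3 were higher and 3 lower in CEC, 4 and 2 in Nissle, and 2 and 4 in DNBS, each against healthy samples. The mean over 4 of them ranged from -3.00 to -2.09 in CEC, -2.66 to -1.93 in Nissle, -3.02 to -2.44 in DNBS and -2.69 to -2.17 in healthy samples. Of 8 assays for macrophages and dendritic cells, 7 were higher in CEC, 8 in Nissle and 5 in DNBS than in healthy samples, with medians of 0.68, 0.54 and 0.20, beside medians of all assays of -0.05, -0.05 and -0.04.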

How the data were processed

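Expression was measured in 20 samples of mouse ileal mucosa by TaqMan OpenArray real-time PCR, on RNA from the mirVana kit, per the labels' protocols. The authors deposited raw, non-normalized Ct values, used here as a score with 40 for undetermined, per the file headers, which call the table a truncated example. Baseline, threshold and averaging of wells are not given in the sources used here. Of 12960 cells, 1273 were undetermined, 1 was empty and 172 (1.33%) equal the mean of the other 4 samples of their group within 1.5e-06 cycles. Of 2592 sets of an assay in a group, 6 have exactly 1 undetermined value and 64 have exactly 2. All these cells were left missing. Why the 172 cells hold means is not known, and the fixed design did not foresee them.

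The fit took relative levels of 569 assays for 514 genes, those with no fewer than 3 values per group, and used limma 3.58.1 in R 4.3.3: 4 group means over 20 samples, moderation with a trend, two-sided tests, and Benjamini-Hochberg adjustment over all 569 at 0.05. Correlations and detection used scipy 1.17.1. The fit was tested on simulated data. Table sections are not in the labels. They were seen in the values, and took 27.3% of the variance within groups, against 15.3% with runs begun 27 rows later. Centring them, keeping the 172 means, and leaving out the samples of widest shifts were chosen after the data were seen. The other alternatives were normalization, filters, weights, samples and the replicate block.

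DNBS and healthy samples share the numbers 3, 4 and 5 in the labels. Deviations of same-numbered samples correlated at 0.19, 0.20 and 0.58, and at 0.27, -0.02 and 0.04 with the sections centred. Nothing in the labels ties a number to a litter, day or batch. The block changed no call of a member, but turned the sign of some differences. It also takes healthy 1b and 6 and CEC 7 and 8 out of the differences, as no other group has their numbers.

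The members, lists and pairs were chosen with earlier results of these data known. Named genes were every member assay, the 2 smallest p-values of each list in the comparisons described, and the 3 assays most like each member. Promoters and gene neighbours came from RefSeq tables for GRCm38.p6, with 6 of 7 members matched to a promoter. Precision is limited by the 5 samples per group.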

Additional observations from a re-analysis of the deposited data

Results flagged for a closer look

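In groups of 4 or 5 samples, 43 sets of a member assay in a group were tested for a sample far from the others by Dixon's ratio, and 4 held one; chance alone marks about 1 in 20. In Il12b_Mm00434174_m1, healthy 1b stood at -7.53, against -4.74 for the nearest healthy sample, a gap of 0.88 of the group's range, and it was also past the critical value with the sections centred, at -7.57. In Ifng_Mm01168134_m1, Nissle 1 stood at -2.06, against -4.15 for the nearest Nissle sample (0.76 of the range), and was not past it with the sections centred. In the same assay healthy 5 stood at -8.04, against -4.99 for the nearest healthy sample (0.81 of the range), and with the sections centred it was past the value again, at -6.55. In Ifng_Mm99999071_m1, healthy 5 stood at -4.11, against -2.48 (0.73 of the range), and at -2.62 with the sections centred, no longer past it. Healthy 5 is also the sample of the widest section shifts, and the part of those shifts in its Ifng levels was not tested beyond that centring.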

How the results depend on the processing

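No member passed the adjusted threshold in any comparison under any alternative: of 3034 member differences, 0 were called, and the smallest adjusted p was 0.209. The sign was kept in 2791 and changed in 243, the latter values not being called anywhere. The count of members called stayed at 0 (range 0 to 0) when each sample was left out in turn, and in detection with each setting. The same held with a replicate block, which compares only samples whose number more than 1 group has. By Pearson's r, 9 of the 12 pairs passed on the measured scale, 8 with the sections centred, 9 with levels set on reference genes and 6 with the other Ifng assay. Without the Nissle samples of contradictory label 5 passed, and fewer samples enter there. As measured, the Il12a, Il12b and Cxcr3 pairs, and Ifng with Cxcl10 and with Cxcl11, did not pass by Spearman's rho. Counts over all assays moved more: in DNBS against healthy samples 1 assay was called, and 0 to 86 under the alternatives, highest with array weights and the sections centred. In CEC against DNBS it was 0, and 0 to 19, in DNBS-treated against healthy samples 1, and 0 to 5, in Nissle against healthy samples 1, and 0 to 4, in CEC against healthy samples 0, and 0 to 2, and in CEC against Nissle 0, and 0 to 1. In Nissle against DNBS it was 0 throughout. Without normalization the median of all assays moved to 0.33 in Nissle against healthy samples, where all 11 members were then above 0, and to -0.33 in CEC against Nissle, where 1 was. No Ct gives a count, so the precision of a single value could not be set from depth.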
